A study of Sus scrofa and Bos taurus with 31 samples.

Results

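Open chromatin of the cerebral cortex was compared with that of 7 other tissues in pigs and cattle, and the regions open in the cortex alone are described here together with the genes nearest to them. The cortex was represented by 4 of the 31 peak lists of the series. In pigs the lists of castrated littermates P348 and P350 (Yorkshire, 6 months) were compared with 14 lists from cerebellum, hypothalamus, adipose, liver, lung, skeletal muscle and spleen of the same animals. In cattle the lists of M08 and M22 (intact Line 1 Hereford males with 1 sire, 14 months) were compared with 13 lists from those tissues, of which cerebellum came from M22 alone. No animal was treated. Each list came from ATAC-seq of cryopreserved nuclei, an assay in which an enzyme inserts sequencing adapters into accessible DNA, and a peak is a stretch with more inserted fragments than its surroundings. The peaks of a species that shared at least 1 bp were merged. A cortex region was a merged region with a peak in both cortex lists, and a cortex-only region had no peak in any list of another tissue. This gave 7716 cortex-only regions among 109427 cortex regions and 533944 merged regions in pigs, and 1622 among 61421 and 504914 in cattle.

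The cerebral cortex is built from excitatory projection neurons, which signal with glutamate, inhibitory interneurons, which signal with GABA, and glia. TBR1 and NEUROD6 are transcription factors of the projection neurons, and NEUROD6 belongs to a family of basic helix-loop-helix factors that bind E-box motifs. Distal open regions often hold enhancers, which are bound by such factors and can act on genes far away, so the nearest gene is only a label of position. The samples were whole tissue, so more cells of a type and more open chromatin per cell cannot be told apart.

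The cortex-only regions with the highest fold enrichment over background lay in introns and between genes. They are ranked by the fold of the weaker animal. The strongest in pig, chr1:79742243-79742607 (Sscrofa11.1), reached 9.52-fold in P348 and 9.45-fold in P350 and lay between genes, 47189 bp from the TSS of MARCKS, a membrane and actin-binding protein. The next, chr2:87308176-87308451, reached 8.5-fold and 8.06-fold in an intron of SCAMP1, a vesicle membrane protein. The fifth, chr12:37759937-37760322, reached 7.76-fold and 7.85-fold in an intron of the deubiquitinase gene USP32. The other 3 of the top 6 had a weaker fold of 7.31 to 7.96 and lay in an intron of MARK3, on an unplaced scaffold, and nearest to KCNU1 and TACR1. Beside them stand the cortex-only regions nearest to TBR1 and NEUROD6, and that with the highest weaker fold nearest to BCL11B, which encodes a factor of deep-layer projection neurons. All are the plus strand of Sscrofa11.1, and stretches wider than 300 bases are shown by their central 300. Capitals mark any of 16 short transcription factor motifs that were searched on both strands, and the lower-case letters around them match none.
Near MARCKS, chr1:79742275-79742574: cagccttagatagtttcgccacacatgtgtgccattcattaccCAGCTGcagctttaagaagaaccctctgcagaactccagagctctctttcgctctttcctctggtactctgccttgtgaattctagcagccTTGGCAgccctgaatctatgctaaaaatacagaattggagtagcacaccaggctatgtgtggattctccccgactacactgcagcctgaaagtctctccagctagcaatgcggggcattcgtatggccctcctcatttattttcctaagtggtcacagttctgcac
SCAMP1 intron, chr2:87308176-87308451: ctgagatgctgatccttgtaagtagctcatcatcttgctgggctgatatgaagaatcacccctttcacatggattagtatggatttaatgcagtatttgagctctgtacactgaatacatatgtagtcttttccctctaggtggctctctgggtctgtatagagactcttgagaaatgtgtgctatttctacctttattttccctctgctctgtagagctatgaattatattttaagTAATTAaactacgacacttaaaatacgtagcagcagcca
USP32 intron, chr12:37759980-37760279: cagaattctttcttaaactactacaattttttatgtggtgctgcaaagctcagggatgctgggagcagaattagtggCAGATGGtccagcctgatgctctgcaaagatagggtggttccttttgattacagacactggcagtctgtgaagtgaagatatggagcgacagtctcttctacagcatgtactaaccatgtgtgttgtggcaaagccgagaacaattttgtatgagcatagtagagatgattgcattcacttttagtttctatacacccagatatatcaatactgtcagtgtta
Near TBR1, chr15:68258705-68258951: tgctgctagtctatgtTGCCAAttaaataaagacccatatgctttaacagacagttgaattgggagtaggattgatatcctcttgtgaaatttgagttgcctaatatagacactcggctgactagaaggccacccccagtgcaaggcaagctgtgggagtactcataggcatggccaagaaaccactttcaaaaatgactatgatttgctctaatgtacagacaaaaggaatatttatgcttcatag
Near NEUROD6, chr18:41723863-41724162: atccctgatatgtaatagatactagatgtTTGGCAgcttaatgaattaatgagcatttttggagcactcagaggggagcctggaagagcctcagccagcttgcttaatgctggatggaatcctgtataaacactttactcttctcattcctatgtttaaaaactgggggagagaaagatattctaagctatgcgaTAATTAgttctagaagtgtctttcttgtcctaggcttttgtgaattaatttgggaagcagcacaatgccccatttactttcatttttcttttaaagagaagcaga
Near BCL11B, chr7:119622029-119622328: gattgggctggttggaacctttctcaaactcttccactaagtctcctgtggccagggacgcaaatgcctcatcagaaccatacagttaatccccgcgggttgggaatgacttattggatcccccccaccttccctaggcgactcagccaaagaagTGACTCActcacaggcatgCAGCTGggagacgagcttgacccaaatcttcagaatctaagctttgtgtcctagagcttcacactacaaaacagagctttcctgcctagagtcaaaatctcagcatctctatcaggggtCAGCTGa
The capitals are an E-box CAGCTG and the NFI motif TTGGCA near MARCKS, a homeobox TAATTA in SCAMP1 and the NEUROD motif CAGATGG in USP32. The region near TBR1 held TTGGCA on the minus strand, and that near NEUROD6 held TTGGCA and TAATTA. The region near BCL11B held the AP-1 motif TGANTCA together with CAGCTG. A match is a description of the letters and not of a bound site.

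The markers of the projection neurons were not open in the cortex alone. TBR1 (chr15:68208884-68222993, plus strand) had 1 cortex-only region, chr15:68258705-68258951, 49821 bp from its TSS, where fold enrichment was 3.72 (P348) and 3.53 (P350). It also had 4 nearest cortex regions that were open elsewhere, and 3 of them, one of which lay 1280 bp from the TSS, had a peak in all 14 other lists. NEUROD6 (chr18:41757356-41763837, plus strand) had 1 cortex-only region, chr18:41723828-41724198, 33158 bp from its TSS in an intron of CCDC129, with folds of 4.17 and 3.42. Of the 4 cortex regions near NEUROD6 that were open elsewhere, the one inside the gene (chr18:41760306-41760595) had a peak in 1 other list and the one closest to its TSS in 5. Both markers had peaks in the cortex, but only a distal region of each was particular to it by the rule.

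The cortex lists did not differ detectably in length from the others. The pig cortex lists held 148722 peaks in P348 and 164080 in P350, within the 99960 to 217308 peaks of the other 14 lists. The log2 difference of means was 0.172 (exact two-sided permutation test over 120 choices of 2 lists, p = 0.542). At q under 0.01 and under 0.0001 it was 0.439 and 0.688 (exact two-sided permutation p = 0.0917 and 0.208). The cattle cortex lists held 78231 peaks in M08 and 154683 in M22, against 37204 to 221848 (log2 difference -0.0823, exact p = 0.867 over 105 choices). The M08 list covered 38.6 Mb and the M22 list 93.9 Mb, and a region found in both cattle had to be in the shorter list. The peak lists carry no counts of reads, and sequencing depth was not used here.

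The 2 pig cortex lists overlapped each other more than nearly all other pairs of pig lists. Their Jaccard index, the shared bases over the bases in either list, was 0.406, the second highest of 120 pairs (exact one-sided p = 0.0167). Most of these pairs join different tissues, so a high rank is not particular to the cortex. The same-tissue pairs of the other tissues had 0.268 in adipose to 0.536 in skeletal muscle. With other tissues the cortex lists had a mean index of 0.178 for cerebellum, 0.262 for hypothalamus and 0.201 to 0.235 for the 5 tissues outside the brain. In cattle the cortex pair reached 0.253 (exact one-sided p = 0.0857). This was below the pairs of lung (0.444), skeletal muscle (0.444), liver (0.295) and spleen (0.265), and above those of hypothalamus (0.202) and adipose (0.192). With lists of equal length, the 37204 peaks with the lowest q in each, the cattle cortex pair reached 0.506 (exact one-sided p = 0.0286).

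Regions open in the cortex alone were 7.05% of the pig cortex regions (95% Wilson interval 6.9 to 7.2) and 2.64% of the cattle cortex regions (2.52 to 2.77), and these intervals cover counting error only. In pigs the cortex ranked 3 of 8 tissues, below cerebellum with 19024 regions and skeletal muscle with 10667, and above liver with 4177 and hypothalamus with 398, the lowest. In cattle it ranked 6 of 8, and without the single cerebellum list, a choice made after the data were seen, the count was 2592 and the rank 3 of 7. The counts depend on finding a region in both animals. Regions with a peak in 1 given cortex list and in no other tissue numbered 14685 for P348 and 19486 for P350, and 5884 for M08 and 15412 for M22. With 1 animal left out of every tissue, which also loosens the rule for the other tissues, cortex-only regions numbered 25525 to 29736 in pigs and 13912 to 20768 in cattle, where leaving out M22 also removes the cerebellum.

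**Figure D1:**
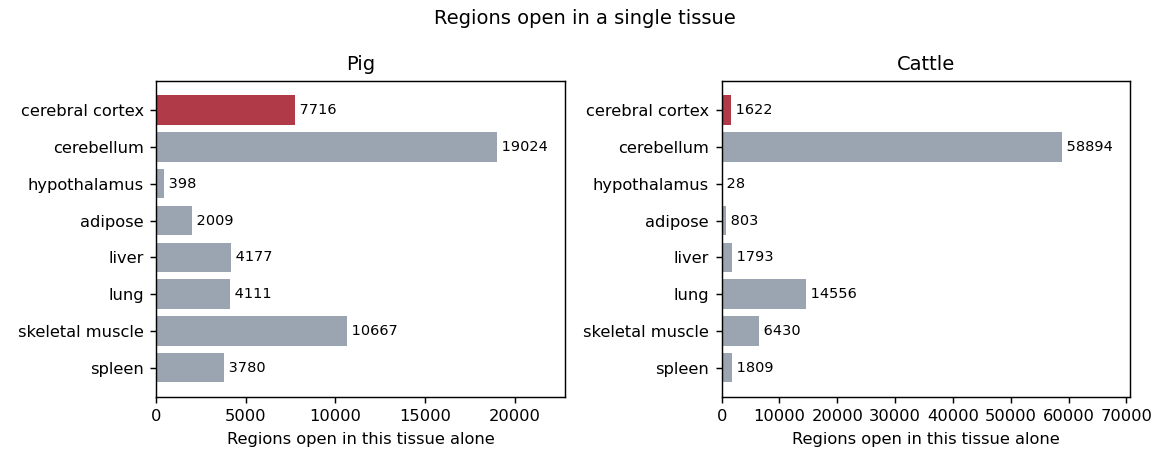
Number of merged regions (horizontal axis) open in every list of 1 tissue and in no list of the others, for each tissue (vertical axis), in pig (left) and cattle (right), with cerebral cortex in red. Cortex stood at 7716 in pig and 1622 in cattle, and the cattle cerebellum bar of 58894 rests on 1 list.

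Cortex-only regions were detected in the second animal less often than other cortex peaks. Of the regions with a peak in P348 cortex and in no other tissue, 52.5% had a peak in P350 cortex, compared with 78.9% of those also open elsewhere. The same shares were 39.6% and 73.1% from P350 to P348. In cattle 27.6% of the M08 regions seen in no other tissue were also found in M22 and 10.5% of the M22 regions were found in M08. The pig cortex-only regions had a median width of 391 bp and a median weaker fold of 3.16, and the cattle regions 370 bp and 3.46. The cortex regions open elsewhere had a median weaker fold of 3.34 in pigs and 4.03 in cattle. They were wider, with medians of 1522 bp and 1382 bp, since they are merged from peaks of more lists. A wider region has more room for a peak of the second animal, and the part of width in these shares was not tested.

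Most cortex regions were shared with tissues outside the brain. In pigs 73.3% of them had a peak in lung, 73.0% in hypothalamus, 68.1% in cerebellum and 54.0% in skeletal muscle. The mean was 70.5% ± 3.41 over the 2 brain tissues and 62.0% ± 7.75 (SD) over the 5 others, a difference of 8.55 percentage points (exact two-sided permutation test over 21 choices of 2 tissues, p = 0.238, where 0.0476 is the smallest possible). Without P350 the difference was -1.04 points. In cattle the means were 73.0% ± 8.99 and 73.3% ± 7.73, a difference of -0.291 points (exact p = 0.952), and 13.4 points after cutting every list to the shortest (exact p = 0.143). Regions that just missed the cortex-only set shared a peak with 1 other list. Among the 6062 pig cortex regions with a peak in exactly 1 other list, that list was hypothalamus P350 in 36.4% but hypothalamus P348 in 2.69%, below adipose P348 with 7.93% and lung P348 with 7.37%. Among the 2646 such cattle regions it was cerebellum M22 in 34.8% and hypothalamus M08 in 33.8%, but hypothalamus M22 in 1.7%. The 3 lists with the largest shares held 146884, 215310 and 63147 peaks, and the part of list length in these shares was not tested. Regions open in the cortex and in no tissue outside the brain numbered 15782 in pigs, 14.4% of the cortex regions.

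**Figure D2:**
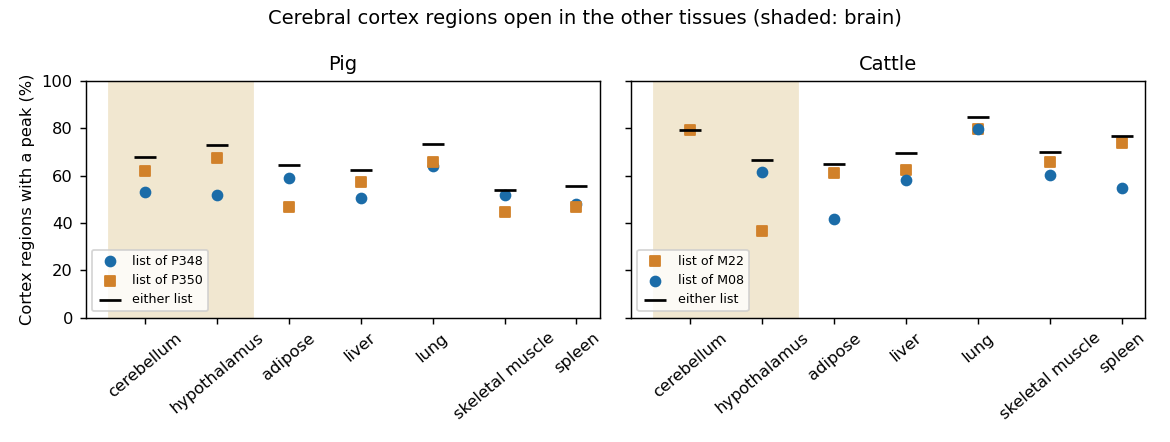
Percent of cerebral cortex regions (vertical axis) with a peak in each other tissue (horizontal axis) in pig (left) and cattle (right). Points are single lists, black bars are either list of the tissue, and the brain tissues are shaded. Pig bars range from 54.0% in skeletal muscle to 73.3% in lung, and the 2 cattle hypothalamus lists lie far apart at 61.6% and 36.7%.

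Few cortex-only regions of the pig lay near a TSS, as was the case for regions open in other single tissues. Of the 7716 regions, 2.58% lay no farther than 2 kb from a protein-coding TSS (95% Wilson interval 2.25 to 2.96), 6.08% overlapped an exon elsewhere, 46.4% lay in introns and 44.9% between genes. Their median distance to the nearest TSS was 53.4 kb. The cortex regions open elsewhere were within 2 kb in 16.6% and had a median distance of 32.8 kb. Over all 533944 merged regions these values were 5.46% and 57.8 kb. Regions open in just 1 of the 7 other tissues were within 2 kb in 3.49% ± 1.86 (SD over 7 tissues). Their median distances were 188 kb in cerebellum and 115 kb in hypothalamus, above the cortex, and 41.9 kb or less in the 5 tissues outside the brain. Whole cortex lists did not differ detectably in their TSS proximal share. It was 12.3% in P348 and 11.3% in P350 against 7.45% to 16.7% in the other 14 lists (difference -1.18 percentage points, exact two-sided permutation p = 0.608).

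RBFOX1, LRRC4C and NAV3 had the most cortex-only regions nearest to them. A cortex-only region was nearest to 4478 of 20394 protein-coding genes (22%), most with 1 region, while 23 genes had at least 10. RBFOX1 (chr3:34938703-37209772, minus strand), a neuronal splicing factor, had 23 cortex-only regions, 2 cerebellum-only and 8 lung-only regions. LRRC4C, a synaptic adhesion protein, had 18, and PTPRD, a receptor phosphatase of synapses, had 13, but both had more cerebellum-only regions, 65 and 85. NAV3, a protein of axon guidance, had 17 with none in cerebellum alone. The adhesion proteins NTM and OPCML had 16 and 12, and 2 and 0 cerebellum-only regions. DLG2, a scaffold of the postsynaptic density, and NRXN3, a presynaptic adhesion protein, had 14 each. SOX9, a short gene for a factor of glial development, had 13, with 2 cerebellum-only regions. KIRREL3 had 12, DAB1, the adaptor of the reelin pathway that guides cortical layering, and BRINP1 had 11, and CNTNAP5, CSMD1 and EFNA5 had 10. Long genes offer more room, so counts were also set against the stretch of genome in which the gene is the nearest. RBFOX1 then had 9.02 cortex-only regions per Mb, NAV3 14.1, SOX9 12.3 and PTPRD 4.14, against 3.18 over all genes.

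**Figure D3:**
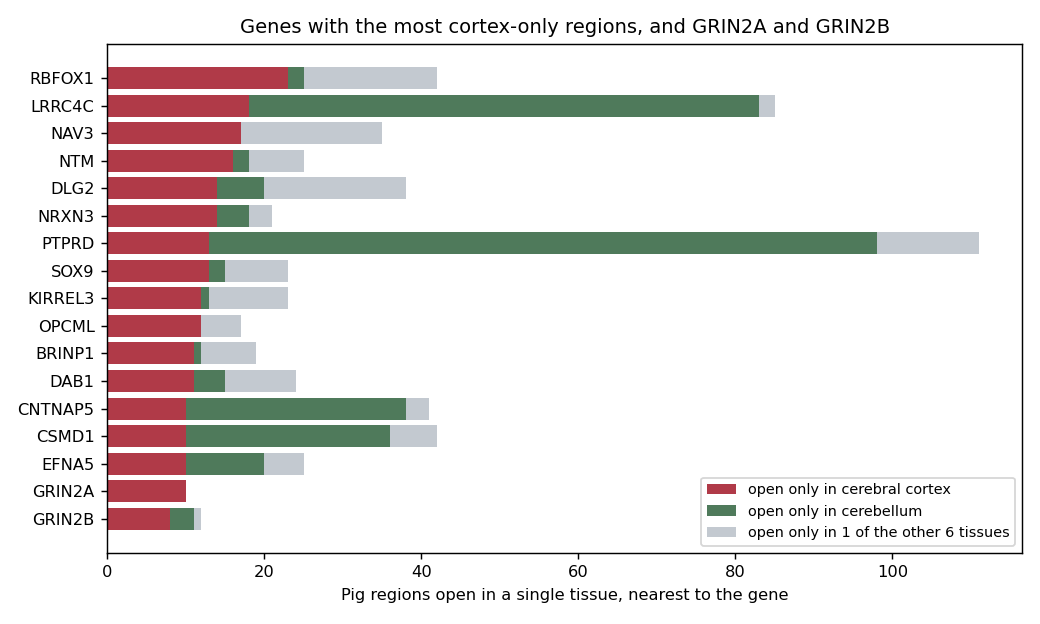
Number of pig regions open in a single tissue (horizontal axis) nearest to each of the 15 genes with the most cortex-only regions and to GRIN2A and GRIN2B (vertical axis), split into cortex-only (red), cerebellum-only (green) and the other 6 tissues (grey). RBFOX1 leads with 23 cortex-only regions, the bars of LRRC4C and PTPRD are mostly cerebellum, and the bar of GRIN2A is cortex alone.

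Cortex-only regions were counted for 11 gene lists, and differences between the lists were not tested. The 14 glutamate synapse genes had 30 cortex-only regions, 6.53 per Mb, at 8 of the genes, where 22% of all genes had one. GRIN2A (chr3:32749329-33149350, plus strand), a subunit of the NMDA receptor, had 10, and no region open only in 1 of the 7 other tissues was nearest to it. Of these 10 regions, 8 lay in introns of GRIN2A, at 14102 to 236134 bp from its nearest annotated TSS, and 2 outside it. The strongest, chr3:32766453-32766748, was enriched 3.85-fold in P348 and 4.14-fold in P350. GRIN2B, another NMDA receptor subunit, had 8, with weaker folds of 2.43 to 4.94, and 3 cerebellum-only regions. The AMPA receptor genes GRIA1, GRIA2 and GRIA3 had 3, 2 and 3, and more cerebellum-only regions, 7, 4 and 7. The 14 genes together had 34 cerebellum-only regions beside the 30 open only in cortex. Over all genes these numbered 17852 and 7671.

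The 13 projection neuron factors had 20 cortex-only regions at 10 genes, 2.91 per Mb, and 61 cerebellum-only regions. BCL11B had 4, FEZF2 and MEF2C had 3, BHLHE22 had 2, and TBR1, NEUROD6, CUX2, RORB and LHX2 had 1. The region near BCL11B printed above (chr7:119622013-119622344) had folds of 6.46 and 6.28 but lay 673393 bp from the TSS. Of the 9 activity-regulated genes matched, ARC, FOS, EGR1, BDNF and NPTX2 had 1 region each. Their transcription rises with neuronal firing.

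Genes of glia also had cortex-only regions. The 8 astrocyte genes had 21, 9.01 per Mb, and 13 of these were nearest to SOX9, at distances of 11856 to 779398 bp. GFAP, the astrocyte filament protein, had 1, outside the gene and 14027 bp from the TSS. The 10 oligodendrocyte genes had 5, 7.16 per Mb, at 4 genes that included MBP, OLIG2 and MYRF. None was nearest to the 6 microglia genes. The remaining lists had 1.61 per Mb for inhibitory neurons, 4.85 for endothelium, 1.28 for cerebellum, 4.91 for hypothalamus and 2.92 for tissues outside the brain.

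The NEUROD motif stood in a larger share of the cortex-only regions than of the regions of any other single tissue. Of the 7539 cortex-only regions more than 2 kb from a TSS, 11.4% held CAGATGG on either strand in the central 300 bases (95% Wilson interval 10.7 to 12.1). Regions open in 1 other tissue alone held it in 4.28% in hypothalamus to 7.65% in cerebellum, and all 508005 merged distal regions in 7.11%. The motif was singled out after its values were seen, so the values by list are given without a test. Among regions with a peak in a list and in no other tissue, a set added after the data were seen that for both cortex lists includes all 7539 above, it was in 10.6% of regions in P348 cortex and 9.9% in P350 cortex, against 5.34% to 6.98% with a median of 5.95% in the other 14 lists. Both cortex lists lay above all others, and the highest of these was cerebellum P350 (difference of means 4.21 percentage points). The GC content of these windows was 45.6% and 44.8% in cortex and 42.6% to 50.9% in the other lists.

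The AP-1 motif TGANTCA, bound by FOS and JUN proteins, also differed in the cortex-only set. It stood in 18.8% of the distal cortex-only regions (17.9 to 19.7), against 9.4% in adipose to 14.6% in lung and in skeletal muscle. By list it was in 16.5% of P348 and 18.1% of P350 cortex regions, and in 7.98% or more of the other lists, of which skeletal muscle P350 lay between the cortex lists (difference of means 6.16 points). The octamer ATGCAAAT, bound by POU factors, stood in 3.33% of cortex-only regions, above all tissues but spleen with 4.68% (lists 2.94% and 2.96% in cortex against 1.02% to 3.85%). The T-box motif AGGTGTGA was in 1.23% of cortex-only regions and 1.39% of all distal regions, and MEF2 TAAAAATAG in 1.19% and 0.813%. The E-box CAGCTG was in 18.7% of cortex-only regions, below the 20.7% of all distal regions. By list it was in 18.8% and 18.3% in cortex, within the range of the other lists, whose median was 19.9%. The NFI motif was in 21.6% of cortex-only and 17.6% of all distal regions, and the homeobox in 9.19% and 6.96%. Among regions of single tissues, only liver was higher for NFI and only cerebellum for the homeobox. The RFX, CRE, EGR, SOX, CTCF, HNF4, forkhead and ETS motifs stood in at most 3.67% of cortex-only regions. The E-box, homeobox, AP-1 and CRE letters read the same on both strands.

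**Figure D4:**
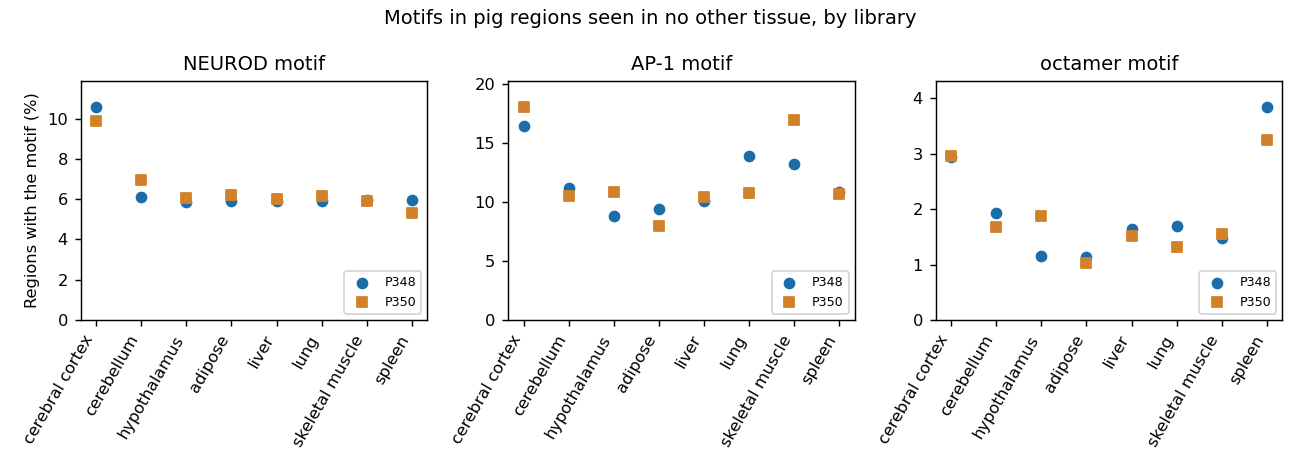
Percent of distal regions (vertical axis) that hold the NEUROD, AP-1 or octamer motif, among pig regions with a peak in the list and in no other tissue, by tissue (horizontal axis) and animal (symbol). NEUROD in the cortex is at 10.6% and 9.9% with all other lists at 6.98% or below, while muscle reaches the cortex for AP-1 and spleen exceeds it for the octamer.

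No motif was called among the strongest peaks, the set on which the lists were tested. In the 10000 distal peaks of highest fold per list, which include those shared between tissues, the NEUROD motif was in 10.4% and 9.56% of cortex windows and in 6.97% to 18.8% of windows of the other lists, highest in cerebellum P350. Of 16 motifs, 0 were higher (0% called) and 0 lower (0%) at an adjusted p under 0.05. Only 1, the octamer, had an unadjusted p under it (2.06% and 2.29% against 0.84% to 2.16%, exact permutation p = 0.0333). The exact permutation test over 120 choices of 2 lists can give no p below 0.00833. A single motif at that value could not pass the adjustment over 16 motifs. The lack of calls therefore does not show that the shares were alike. For the NEUROD motif the cerebellum lists, at 18.7% and 18.8%, were the only ones above both cortex lists.

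Openness was next summed over genes. For each of 19414 protein-coding genes, the bases under peaks inside the gene or up to 10 kb outside it were scaled to each Mb of peaks in the list and compared as log2(bases per Mb + 5) with limma, in a model of 8 tissue means over all 16 pig lists. Against the mean of the 7 other tissues, 125 genes were higher (0.644%) and 33 lower (0.17%) in cortex at a Benjamini-Hochberg adjusted p under 0.05. The split changed with scaling, to 23 higher and 1 lower without division by list, and 338 and 224 with lists of equal length. With the animal as a replicate block the 33 became 18. limma called 0 genes without cortex P348 (1453 at an unadjusted p under 0.05) and 2 without cortex P350, where the cortex rests on 1 list that is assumed to vary like the other tissues. The higher count also moved by over 1.5 times without hypothalamus P350 (196), adipose P350 (65), liver P348 (78), lung P348 (46), lung P350 (44) or skeletal muscle P350 (50). The lower count was 7 to 19 without an adipose P350, liver, lung or skeletal muscle list, 54 without cerebellum P348 and 60 without hypothalamus P350. The 125 genes had a median length of 194 kb, compared with 21.2 kb over all genes tested.

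Genes of neurons and oligodendrocytes were among the higher calls of smallest p. GPR158, a receptor of neurons, had 135 bases per Mb in P348 cortex and 134 in P350, and 16.6 to 65.7 with a median of 38.0 in the other 14 lists. Both cortex lists were above all others, and hypothalamus P350 was next (log2 difference 1.76 ± 0.24 (SE), limma adjusted p = 0.00702). TRIM9, a ubiquitin ligase of axons, had 113 and 126 against 17.7 to 69.0, again with no overlap (1.49 ± 0.20, limma adjusted p = 0.00702). NUP93, a nuclear pore gene, had 176 and 163 against 11.9 to 98.0, highest in adipose P350 (1.88 ± 0.28, limma adjusted p = 0.013). BEX5 had 26.2 and 19.0 in cortex, 9.65 to 12.9 in the other brain lists and no peak in adipose, liver, muscle and spleen (1.75 ± 0.23, limma adjusted p = 0.00575). ERMN, an oligodendrocyte protein, had 19.9 and 29.3, and the hypothalamus lists, at 18.7 and 29.3, overlapped the cortex (1.80 ± 0.23, limma adjusted p = 0.00575). LGSN, an eye lens protein, had 30.2 and 28.4 against 0 to 40.1, highest in hypothalamus P350 (1.95 ± 0.28, limma adjusted p = 0.0113). It kept its call under 7 other settings of the pseudocount, window, scaling and threshold, with a limma adjusted p up to 0.0431, though not without a cortex list. IL17A was also among the 10 calls of smallest p. The calls of GPR158, TRIM9, NUP93, BEX5, ERMN and IL17A were lost in part of these settings, with limma adjusted p up to 0.611, 0.27, 0.969, 0.0584, 0.103 and 0.229, and the lowest difference of NUP93 was -0.03.

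The lower calls included a Hox gene. HOXB3, which specifies hindbrain and trunk identity and is not a forebrain gene, had no peak in either cortex list and 2.27 to 68.7 bases per Mb in the other lists, with the lowest values, 2.57 and 2.27, in cerebellum P348 and hypothalamus P350 (limma adjusted p = 0.0233). FCAR, an immunoglobulin receptor of myeloid cells, also had no peak in cortex and reached 51.6 in spleen P348. EBF3, SLCO6A1 and MAK were the others of the 5 strongest, with log2 differences of -1.35 to -1.30 (limma adjusted p = 0.0152 to 0.0265). The calls of all 5 were lost in part of the other settings, with limma adjusted p up to 0.0738 for HOXB3 and 0.387 to 0.955 for the others.

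The glutamate synapse list held 2 of 14 genes called higher and none lower, with a median log2 difference of 0.69 against 0.02 over all genes. GRIA3 had 109 and 84.4 bases per Mb in cortex and 92.5 and 98.8 in cerebellum, but at most 56.6 elsewhere (1.89 ± 0.35, limma adjusted p = 0.0283). GRIA1 had 208 and 241 in cortex, 176 to 238 in the other brain lists and 3.81 to 188 outside the brain (1.22 ± 0.24, limma adjusted p = 0.0364). Both calls were lost in part of the other settings, with limma adjusted p up to 0.274 and 0.43. GRIN2B had 402 and 445 against up to 414 (0.76 ± 0.17, limma adjusted p = 0.053), and GRIN2A had 349 and 316 against 14.2 to 358 (1.31 ± 0.29, limma adjusted p = 0.0547), so neither passed the test. Summed over the list, the cortex lists had 1990 and 2020 bases per Mb and the other 14 lists 918 to 1670.

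None of the 13 projection neuron factors was called against the 7 tissues, with a median of 0.64. NEUROD6 had 43.9 bases per Mb in P348 cortex and 24.3 in P350, and 4.34 to 43.4 with a median of 11.5 in the other lists. Adipose P350 was the only other list above either cortex value (1.16 ± 0.36, limma adjusted p = 0.15). TBR1 had 32.8 and 43.2 against 25.5 to 52.1, highest in spleen P348, and the groups overlapped fully (0.10 ± 0.21, limma adjusted p = 0.882). RORB and FEZF2, which mark layers of the cortex, differed by 0.86 ± 0.22 and 1.07 ± 0.32, with limma adjusted p of 0.0801 and 0.137. FEZF2 was higher in both cortex lists than in all others, which reached 20.7 bases per Mb in lung P348. The list sum was 995 and 1060 in cortex and 568 to 899 in the other lists.

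**Figure D5:**
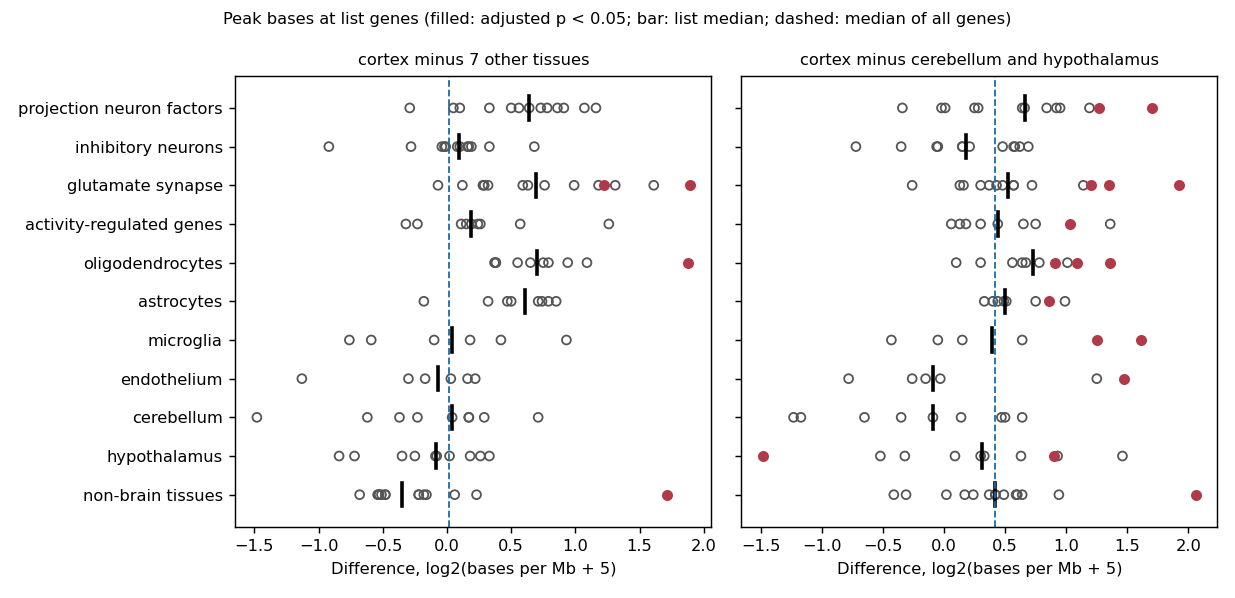
Difference in log2(peak bases per Mb + 5) for each gene (points) of 11 lists (vertical axis), between cortex and the mean of 7 other tissues (left) or of cerebellum and hypothalamus (right). Filled points have an adjusted p under 0.05, black bars are list medians and the dashed line is the median of all genes, at 0.018 on the left and 0.421 on the right.

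Among lists of other cell types, the medians of oligodendrocyte and astrocyte genes lay above that of all genes, at 0.02. Those of microglia genes, at 0.04, and endothelium genes, at -0.07, lay close to it. Of the 10 oligodendrocyte genes 1 was called higher, and all 10 had a difference above 0 with a median of 0.70. The list sum was 446 and 476 in cortex, 96.5 to 534 elsewhere, and highest in hypothalamus P348. Astrocyte genes had a sum of 557 and 536 against 285 to 494, with 0 of 8 called (median 0.60). Microglia genes had 193 and 180 against 86.5 to 399, highest in spleen, endothelium genes 326 and 254 against 213 to 530, and no gene of the 11 lists lacked a peak in both cortex lists. Inhibitory neuron genes had 289 and 284 against 189 to 358 and 0 of 12 called (median 0.09). The part of these cell types in the other calls was not tested. Of the 14 genes of tissues outside the brain, APOH, a plasma protein made by the liver, was called higher with 12.2 and 20.3 bases per Mb in cortex. It had 40.4 in liver P348 and no peak in 11 other lists (1.71 ± 0.36, limma adjusted p = 0.0425), and the call was lost with the animal as a replicate block (limma adjusted p = 0.0516) and in other settings (up to 0.846).

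Against the other 2 brain tissues the differences were far more numerous. Relative to the mean of cerebellum and hypothalamus, 2961 genes were higher (15.3%) and 718 lower (3.7%) in cortex. The median of all genes was itself 0.421 on the log2 scale, so differences are to be read relative to it. It ranged from 0.13 to 0.565 in the other settings. This comparison shares the cortex and brain lists with the one before. The higher count was 37 without cortex P348, 204 without cortex P350, 1494 without cerebellum P348 and 5449 without cerebellum P350, and the lower count 40, 84 and 377 without the first 3 of these. The 10 higher calls of smallest p were RAMP2, ARG2, MLXIP, NUP93, TMEM233, TNRC6B, KIF1B, MAP2K1, RBFOX2 and STN1. RAMP2, a receptor partner of vessels, had 44.7 and 46.0 in cortex and 0 to 13.1 in the other brain lists (2.58 ± 0.28, limma adjusted p = 0.00118), but up to 58.5 in adipose. Of the 10, RAMP2, MLXIP and TMEM233 stayed called in the settings of pseudocount, window, scaling and threshold, and the others were lost in part of them (limma adjusted p up to 0.104 to 0.595). The lower calls included PMCH, the melanin-concentrating hormone of the hypothalamus, which had no peak in cortex and 10.9 to 16.9 in the other brain lists (limma adjusted p = 0.00179). Liver lists had 9.23 and 12.6, and the call was lost in part of the other settings (limma adjusted p up to 1.0).

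Within the lists, 2 of 13 projection neuron factors were higher than in the other brain tissues (median 0.66 against 0.42 over all genes), a share close to the 15.3% of all genes called higher. CUX2, a factor of upper cortical layers, had 195 and 187 bases per Mb in cortex and 12.3 to 106 in the other brain lists (1.70 ± 0.43, limma adjusted p = 0.0189), yet adipose and lung lists reached 199. MEF2C, which acts in neurons and muscle, had 149 and 192 against 52.2 to 83.0 (1.27 ± 0.25, limma adjusted p = 0.00742), and 379 and 351 in skeletal muscle. Among glutamate synapse genes HOMER1, GRIN2A and DLG4 were higher, at 1.92, 1.2 and 1.35. HOMER1, a postsynaptic scaffold, had 132 and 79.3 in cortex and 15.9 to 31.0 in the other brain lists, and 164 and 251 in skeletal muscle (limma adjusted p = 0.00441). Also higher were 3 of 10 oligodendrocyte genes, MYRF and MAG among them, and 1 of 8 astrocyte genes, SLC1A2. The same held for 2 of 6 microglia genes, CX3CR1 and CSF1R, and 1 of 6 endothelium genes, PECAM1. PECAM1 was unlike its list, which had 2 of 6 genes above 0 and a median of -0.09, below that of all genes. SIM1, a hypothalamic factor, was lower, with 40.6 and 27.4 against 67.4 to 124 (-1.48 ± 0.37, limma adjusted p = 0.0172). AGRP of the same hypothalamus list was higher, with 14.1 and 16.3 against 3.18 to 8.45 (0.9 ± 0.25, limma adjusted p = 0.0265). Of the 10 genes of that list, 7 had a difference above 0, with a median of 0.31. The calls of all these named list genes were lost in part of the other settings. The limma adjusted p was up to 0.234 for CUX2, 0.732 for MEF2C, 0.698 for HOMER1, 0.914 for GRIN2A and 0.977 for DLG4. It was up to 0.47 for SIM1, 0.693 for AGRP and 0.122 to 0.785 for the named glial and endothelial genes. The lowest differences of MEF2C, HOMER1 and GRIN2A were below 0, at -0.92, -0.19 and -0.11. None of the 9 cerebellum genes was called, and GABRA6, a receptor subunit of cerebellar granule neurons, had 11.5 and 2.34 in cortex and 10.1 to 30.3 in the other brain lists (-1.23 ± 0.47, limma adjusted p = 0.0758).

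The cattle cortex-only regions could be described by position and strength alone, on the cattle build named by the submitters (ARS-UCD1.2). The 3 with the highest weaker fold were chr8:93744837-93745205, with 7.64-fold in M08 and 13.2-fold in M22, chr20:37068233-37068589 with 6.82-fold and 9.95-fold, and chr25:28248299-28248558 with 6.56-fold and 12.3-fold. M22 was the stronger animal in all 3. Their widths of 260 to 369 bp were like those of the pig regions printed above, and the genes near them are not analysed here. Whether cattle and pig cortex-only regions lie at matching genes was not tested.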

How the data were processed

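ATAC-seq was measured in 8 tissues of 2 pigs and 2 cattle. Per the submitters' processing notes reads were handled with Trim Galore 0.4.5, BWA 0.7.17, SAMtools 1.10 and Picard 2.18.17. The builds were susScr11 (pig) and ARS-UCD1.2 (cattle, bosTau9). The authors called broad peaks with MACS2, and the lists used here are those of single libraries. For its own accessible regions the paper called peaks on the reads of both animals together. Whether reads were shifted for the transposase is not given in the sources used here. The deposited lists hold for each peak a score, which is the −log10 q scaled to a whole number by the authors' caller. They also hold the fold enrichment over local background and the −log10 p and q values, which the authors' caller averaged over the peak. Lists hold peaks over background only, so a missing peak can mean low depth. Whole lists were used as deposited, including peaks whose averaged q exceeded 0.05 (1.54% to 16.3% of the peaks of a pig list).

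Samples were grouped by labelled tissue, and the animal paired them: the labels give the same animal for tissues that share its number. Deviations of same-animal lists from their tissue means correlated between tissues at -0.215 to 0.159 (median 0.00477 over 28 pairs of tissues). Groups of lists were compared with exact permutation tests in Python 3.11.15 (scipy 1.17.1), and genes with limma 3.58.1 in R 4.3.3 with Benjamini-Hochberg adjustment. Genes with a mean under 1 base per Mb were left out, and the pseudocount of 5 understates changes of low genes. Nearest genes used the protein-coding TSS of the RefSeq annotation of Sscrofa11.1 within 1 Mb. Intervals are 95% Wilson intervals and cover counting error only. Overlapping genes can share peaks. The limma p-values rest on 2 animals and measure the spread between them within tissues. The permutation p-values measure the variation among lists, pairs of lists or tissues, and not that between animals.

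Named were the 2 marker genes and up to 4 genes of each list by adjusted p, the 15 genes with the most cortex-only regions, the 10 higher and 5 lower genes of smallest p in each comparison, and the regions of highest weaker fold. Other genes named beside their region counts, and AGRP, were chosen after their values were seen. Of 112 listed genes 111 matched. The members and lists were chosen with earlier results of these data known, so the counts are a description. Scripts were tested on simulated data. Alternatives covered thresholds, list length, windows, scaling, pseudocounts, the replicate block and leaving out lists. Some genes that met these rules are not reported here.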

Additional observations from a re-analysis of the deposited data

How the results depend on the processing

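Of 196 alternative values for 16 results, 124 were counted as unchanged, but some of these differed much in size from the main value. At q under 0.0001 the pig list length difference went from 0.172 to 0.688. The difference between whole pig lists in TSS proximal share went from -1.18 to -9.38 points. The brain share of pig cortex regions went from 8.55 to 3.12 points, and to 1.43 when both lists of the other tissue were needed. The counts of motifs called were 0 in every setting. Cortex-only regions numbered 20447 in pigs and 4803 in cattle when a peak in 1 animal of another tissue was allowed, 1058 and 1079 in cattle at q under 0.0001 and with equal lists, and 2592 without cerebellum. Leaving out 1 animal from every tissue gave 25525 to 29736 in pigs and 13912 to 20768 in cattle. The brain share of pig cortex regions was -1.04 to 11.5 points without 1 animal. In cattle it was 2.84 at q under 0.0001, 13.4 with equal lists, 1.16 when both lists of the other tissue were needed, and -9.85 to 1.3 without 1 animal. The cattle list length difference was 0.102 and 0.201 at q under 0.01 and 0.0001, and -0.373 to 0.237 without 1 animal. The cattle Jaccard index was 0.506 with equal lists and 0.357 with 50% reciprocal overlap. The TSS proximal share of pig cortex-only regions was 0.7% at a shorter distance limit, 3.54% at q under 0.0001 and 2.97% under the looser tissue rule, and the difference between whole lists was 0.247 points with equal lists. The cause of these shifts was not tested, beyond the tighter or looser rule itself.

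Genes higher and lower against 7 tissues numbered 53 and 17 with a pseudocount of 1, 233 higher with 20, 89 lower with no filter, 25 and 18 near the TSS, 23 and 1 unscaled, 338 and 224 with equal lists, 539 and 185 at q under 0.0001, and 292 and 94 by number of peaks. Of the 158 calls 18 remained near the TSS, where 8 had the opposite sign, and 42 at q under 0.0001, where 10 did. Against brain they were 6653 and 1463 with 50 kb flanks, 877 and 283 near the TSS, 1231 higher unscaled, 1054 and 230 at q under 0.0001, and 433 lower by number of peaks. Of the brain calls 941 remained near the TSS, where 141 had the opposite sign, and 356 at q under 0.0001, where 634 did. Leaving out 1 list gave 0 to 196 and 0 to 60 against 7 tissues, and 37 to 5449 and 40 to 876 against brain. With the animal as a replicate block the counts were 85 and 18, and 2629 and 664, and the block moved no other count by over 1.5 times. Read depth, which the lists do not give, limits all counts of regions.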

Other observations

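Genes of blood vessels also had cortex-only regions in pig. CDH5, an adhesion protein of endothelial cells, had 3, and the VEGF receptor genes FLT1 and KDR had 2 each. No cerebellum-only region was nearest to any of the 6 endothelium genes. Regions open only in 1 tissue outside the brain numbered 13 at these genes, against 7 cortex-only regions. Peak bases at CDH5 were 19.6 and 12.5 per Mb in cortex, with a median of 45.8 in the other 14 lists. Among markers of interneurons, PVALB, SST and DLX2 had 1 region each. These 3 of 12 genes are a share close to the 22% of all genes with one. Per Mb the list had 1.61, below the 3.18 over all genes. In lists of other brain areas, SIM1, OTP, AVP and HCRT of the hypothalamus list had 2, 1, 1 and 1, at 4 of 10 genes. ZIC1 and CBLN1 of the cerebellum list had 2 and 1, and these 2 of 9 genes are again close to the share of all genes. LEP, which encodes the fat hormone leptin, was the only one of the 14 genes of tissues outside the brain with any, at 2.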
